A study of Rattus norvegicus with 28 samples.

Results

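The myosin light chains, the kinase that phosphorylates one of them and the proteins that bind the myosin rod were followed through 3 durations of neuromuscular blockade in rat muscle. The genes were chosen by name, as every probe set of the array that carries the symbol Myl1, Myl2, Myl3, Myl4, Mylpf, Mylk2, Mybpc1, Mybpc2 or Mybph. Of these 9 names, 8 were found, each on 1 probe set with no other symbol, which makes 8 of the 26208 probe sets in the table. Myl4, the atrial and embryonic essential light chain, was not matched by its symbol, its gene ID or any of 5 RefSeq transcripts and was not analysed here. The array's annotation places the 8 probe sets in the cross-hybridisation class of unique probes, with 26 to 36 probes each.

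RNA was taken from the proximal gastrocnemius, a calf muscle, of 28 rats (Sprague-Dawley, female) and hybridised to Affymetrix Rat Gene 1.0 ST arrays. The control group was 5 sham-operated rats that breathed on their own under isoflurane and received no toxin, and the source descriptions of these samples name the blocker and ventilation too, against their titles and sample type, so every change against the controls rests on the latter. The other 23 rats were ventilated under isoflurane with paralysis by α-cobrotoxin, a cobra toxin acting on the acetylcholine receptor of the motor endplate, and formed the groups 6h-4d (n = 13), 5-8d (n = 4) and 9-14d (n = 6). The study describes the rats as young adults and gives no age in the sources used here. One label text of the series gives the middle group as 5 to 9 days, whereas its sample labels give 5-8 days and were followed. Each group pooled rats of several durations, and toxin, ventilation and time under anaesthesia differed from the controls together and cannot be told apart.

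The values are the authors' log2 changes of each duration against the same 5 controls, with p-values from limma adjusted by Benjamini-Hochberg. Values of single rats were not used here, so neither the level of a gene nor the overlap of groups can be given, and the labelled tissue was not checked against levels of its markers. The standard error (SE), the 95% confidence interval and the within-group SD were recovered from each change and its p-value. With them the durations were compared with one another. The SD is 1 moderated value per probe set, shared by all 4 groups. A change was called, as up- or down-regulation, where it was 2-fold or more and its adjusted p was below 0.05.

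Each myosin heavy chain carries 1 essential and 1 regulatory light chain on the neck between its motor head and its rod, and fast and slow fibres use different genes for both. In fast fibres the essential chain comes from Myl1 and the regulatory chain from Mylpf, and in slow fibres, which share these genes with the heart ventricle, from Myl3 and Myl2. The kinase encoded by Mylk2, switched on by calcium and calmodulin during contraction, phosphorylates the regulatory chain and raises force at low calcium, while the C proteins (Mybpc1, the slow form, and Mybpc2, the fast form) and the H protein (Mybph) bind the thick filament in regular stripes. The rat gastrocnemius holds mostly fast fibres, with slow fibres in a deeper part.

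The start regions of 2 pairs of genes with related products and unlike changes are shown so that a reader can set the letters beside the values that follow. Of the essential light chains Myl3 was called and Myl1 was not, and of the C proteins Mybpc2 was called and Mybpc1 was not. Each sequence is the 250 bases before a RefSeq start on the rat build GRCr8, read 5′ to 3′ on the gene's strand, with the E-box CANNTG, a core motif bound by myogenic helix-loop-helix factors, in capitals. Of the members, 4 have such windows in the table used, and Myl1 has a pair of starts 9897 bp apart, which background knowledge links to its long and short products. The upstream start of Myl1 lies after chr9:75907697-75907946 and the downstream start after chr9:75897800-75898049, both on the minus strand, that of Myl3 after chr8:119616844-119617093 on the plus strand, that of Mybpc1 after chr7:24903374-24903623 and that of Mybpc2 after chr1:104154102-104154351, both on the minus strand.
Myl1, upstream start: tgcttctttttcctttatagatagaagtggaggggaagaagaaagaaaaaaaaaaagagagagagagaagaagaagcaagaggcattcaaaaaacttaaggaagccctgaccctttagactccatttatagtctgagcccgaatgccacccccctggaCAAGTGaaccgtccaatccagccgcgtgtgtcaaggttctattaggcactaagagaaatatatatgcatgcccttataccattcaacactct
Myl1, downstream start: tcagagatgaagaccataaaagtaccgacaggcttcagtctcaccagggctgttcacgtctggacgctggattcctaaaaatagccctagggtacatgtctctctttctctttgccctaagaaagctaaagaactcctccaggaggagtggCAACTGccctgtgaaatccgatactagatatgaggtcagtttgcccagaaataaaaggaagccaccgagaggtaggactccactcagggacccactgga
Myl3: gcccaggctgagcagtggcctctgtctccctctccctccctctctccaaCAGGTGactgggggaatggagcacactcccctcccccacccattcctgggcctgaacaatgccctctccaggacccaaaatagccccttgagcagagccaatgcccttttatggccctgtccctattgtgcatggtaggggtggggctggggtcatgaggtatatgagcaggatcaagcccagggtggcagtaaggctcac
Mybpc1: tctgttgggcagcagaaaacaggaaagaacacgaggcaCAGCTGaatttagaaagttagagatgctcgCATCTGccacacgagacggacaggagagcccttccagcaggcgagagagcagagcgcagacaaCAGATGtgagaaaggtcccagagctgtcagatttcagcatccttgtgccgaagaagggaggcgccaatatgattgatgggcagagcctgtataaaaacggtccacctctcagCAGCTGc
Mybpc2: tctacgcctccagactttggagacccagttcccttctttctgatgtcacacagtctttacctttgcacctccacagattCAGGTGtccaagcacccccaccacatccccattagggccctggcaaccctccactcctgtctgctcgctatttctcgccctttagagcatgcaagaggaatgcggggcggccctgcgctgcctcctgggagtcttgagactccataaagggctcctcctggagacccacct

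All 5 windows hold an E-box, as do 65.5% of the 33465 windows of this length in the table. The Mybpc1 window holds 4, beginning 212, 182, 119 and 7 bases before the start, and each of the others holds 1. The letters CATTCC, the core of the M-CAT motif, were searched on both strands and are in 12.1% of all windows. They occur at 2 places in the Myl3 window, 189 bases before the start on the opposite strand and 161 bases before it on the gene's strand, and at 1 place in the Mybpc2 window, 75 bases before the start on the opposite strand. The CArG box, held by 1.50% of all windows, begins 97 bases before the Myl3 start. The MEF2 motif, held by 2.96%, begins 176 bases before the downstream Myl1 start. TATAAA, searched on both strands and held by 12.9%, begins 30 bases before the Mybpc1 start on the gene's strand and has 2 matches on the opposite strand in the upstream Myl1 window. None of these matches overlap, and they describe letters only.

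After 9 to 14 days, 5 of the 8 genes were called. The slow light chains Myl3 and Myl2, the kinase Mylk2 and the fast C protein Mybpc2 were down-regulated, and the H protein Mybph was up-regulated. Over all probe sets 5.12% were called in this comparison, 2.12% down-regulated and 3.01% up-regulated. At 5-8d, Myl2 and Mylk2 were called, both down-regulated, against 5.21% of all probe sets. At 6h-4d, 0 of the 8 were called by limma, against 0.549% of all probe sets, and 1, Mybpc1, had an unadjusted p below 0.05, as had 16.8% of all probe sets. On the adjusted p alone, the counts at the 3 durations were 0, 5 and 7 of 8, against 3.54%, 26.2% and 35.5% of all probe sets, and at 5-8d Mybpc2 no longer passed when each comparison was centred on its median. The median log2 change of the 8 was -0.17, -0.75 and -1.26 at 6h-4d, 5-8d and 9-14d, beside -0.01, -0.04 and -0.07 over all probe sets.

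**Figure D1:**
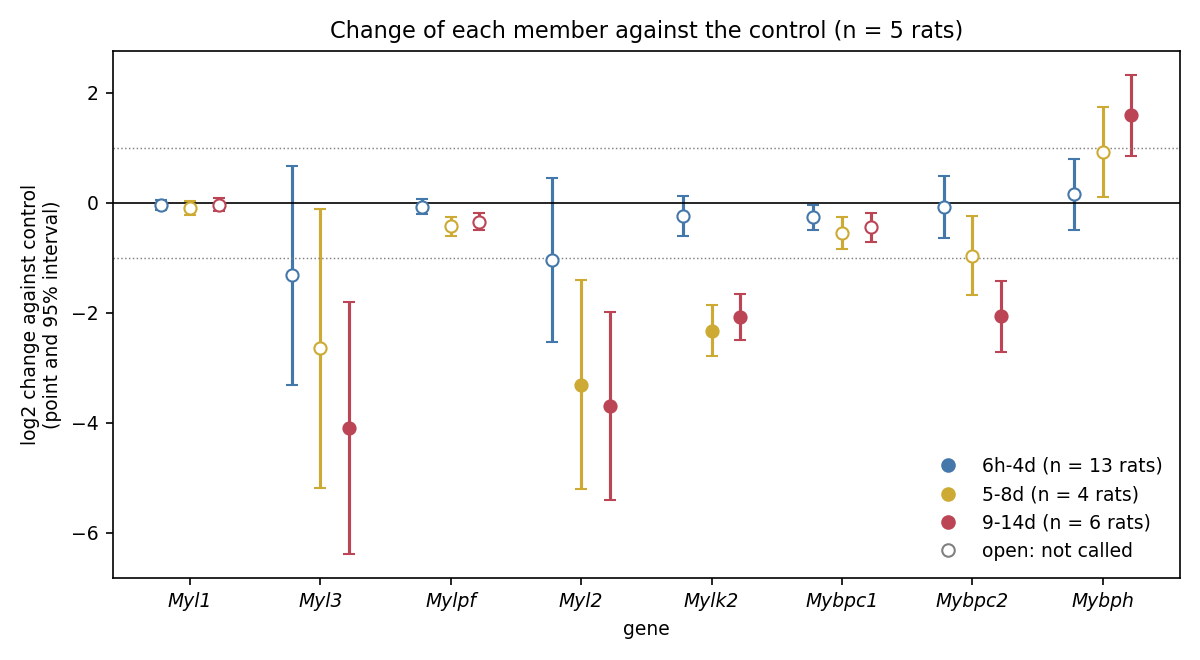
Log2 change of each gene against the 5 controls (vertical axis, log2 units) at 6h-4d (n = 13 rats), 5-8d (n = 4) and 9-14d (n = 6). Points are the changes, bars the 95% confidence intervals, filled points the called changes, and dotted lines a fold change of 2. Myl3 and Myl2 reach -4.09 and -3.70 with the widest intervals, Myl1 lies on 0 with the narrowest, and Mybph alone lies above 0 at all 3 durations.

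The slow essential light chain Myl3 (probe set 10913722, chromosome 8 from 115140705 to 115146827 on the plus strand of build RGSC3.4) had the lowest value of the 8 genes at 9-14d. Its log2 change was -1.32 at 6h-4d (SE 0.97, adjusted p = 0.550), -2.65 at 5-8d (SE 1.24, adjusted p = 0.120) and -4.09 at 9-14d (SE 1.12, adjusted p = 0.00561 from limma). The last value is a 17.1-fold down-regulation and the sixth largest fall of the whole table. The study's text counts Myl3 as down-regulated at both later durations, but its value at 5-8d did not pass the adjusted p. In these bulk samples, fewer slow fibres in the muscle, fewer in the piece taken and less Myl3 RNA per fibre cannot be told apart. Myl3 was lower at 9-14d than at 6h-4d by -2.77 (SE 0.91, adjusted p = 0.0193). The difference of 9-14d from 5-8d, -1.44, had an interval of -3.89 to 1.00 (adjusted p = 0.645), and that of 5-8d from 6h-4d was -1.33 (adjusted p = 0.423), so neither step passed the test by itself.

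The fast essential light chain Myl1 (probe set 10928614, chromosome 9 from 65717097 to 65737576, minus strand) did not pass the test at any duration, with narrow intervals. Its log2 change was -0.04 at 6h-4d (interval -0.14 to 0.05), -0.10 at 5-8d (-0.23 to 0.02) and -0.03 at 9-14d (-0.15 to 0.08). The lowest adjusted p of the 3 was 0.235. The study's text lists Myl1 among sarcomeric genes down-regulated at both later durations, which the values of this probe set do not show. In array signal, a fold change of 1.12 at 6h-4d, 1.12 at 5-8d and 1.10 at 9-14d would have passed the adjusted p. Whether this signal lay near the upper limit of the array was not checked, since levels were not used. The 3 differences between durations lay between -0.06 and 0.07 and did not pass the test. The probe set was summarised as 1 value, so the long and the short product of the gene are not separated.

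The slow regulatory light chain Myl2 (probe set 10762067, chromosome 12 from 35653817 to 35663865, minus strand) was down-regulated at both later durations. Its log2 change was -1.04 at 6h-4d (SE 0.73, adjusted p = 0.520), -3.31 at 5-8d (SE 0.93, adjusted p = 0.00846) and -3.70 at 9-14d (SE 0.84, adjusted p = 0.00111). These are 9.90-fold and 13.0-fold falls at the later durations. Against 6h-4d, Myl2 was lower by -2.27 at 5-8d (SE 0.79, adjusted p = 0.0395) and by -2.66 at 9-14d (SE 0.68, adjusted p = 0.00343). Between 5-8d and 9-14d the difference was -0.39 with an interval of -2.22 to 1.44 (adjusted p = 0.897), which leaves room for a further fall or a rise of more than 2-fold.

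The fast regulatory light chain Mylpf (probe set 10710997, chromosome 1 from 186471846 to 186474466, plus strand) was lower at both later durations by less than the fold change minimum. The log2 change of Mylpf was -0.07 at 6h-4d (SE 0.07, adjusted p = 0.667), -0.43 at 5-8d (SE 0.08, adjusted p = 0.000296) and -0.35 at 9-14d (SE 0.08, adjusted p = 0.000810). In folds these later values are 1.35 and 1.27. Mylpf was lower than at 6h-4d by -0.36 at 5-8d (adjusted p = 0.000407) and by -0.28 at 9-14d (adjusted p = 0.00101), and the later durations differed by 0.09 (interval -0.08 to 0.25, adjusted p = 0.690). The change was small in size and large beside the within-group SD of 0.125.

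The kinase Mylk2 (probe set 10840927, chromosome 3 from 143252183 to 143263849, plus strand) had the lowest adjusted p of the 8 genes at both later durations. The log2 change of Mylk2 was -0.25 at 6h-4d (SE 0.18, interval -0.61 to 0.11), -2.33 at 5-8d (SE 0.23, interval -2.79 to -1.87) and -2.08 at 9-14d (SE 0.20, interval -2.50 to -1.67). These were 5.02-fold and 4.23-fold down-regulations, with adjusted p-values of 3.96e-08 and 6.52e-09. By its adjusted p at 5-8d the gene ranked 27th of all probe sets. Mylk2 was lower at 5-8d than at 6h-4d by -2.08 (SE 0.19, adjusted p = 1.34e-08) and lower at 9-14d than at 6h-4d by -1.84 (SE 0.17, adjusted p = 9.31e-10). The later durations differed by 0.25 with an interval of -0.20 to 0.69 (adjusted p = 0.671).

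The fast C protein Mybpc2 (probe set 10721361, chromosome 1 from 94979437 to 95002737, minus strand) was lower at 5-8d and called at 9-14d. Its log2 change was -0.09 at 6h-4d (SE 0.28, adjusted p = 0.927), -0.96 at 5-8d (SE 0.35, adjusted p = 0.0423) and -2.07 at 9-14d (SE 0.32, adjusted p = 1.04e-05). The middle value is a 1.95-fold fall, just under the minimum, and the last a 4.20-fold down-regulation. The study's quantitative PCR of a gene it names Mybpc, with array values like these, was below the controls at each duration. None of those PCR values was marked as a significant change. After the median of all probe sets was subtracted from each comparison, the value at 5-8d was -0.92 and no longer passed (adjusted p = 0.0533). Mybpc2 was lower than at 6h-4d by -0.88 at 5-8d (SE 0.30, adjusted p = 0.0355) and by -1.98 at 9-14d (SE 0.26, adjusted p = 7.12e-07). From 5-8d to 9-14d the difference was -1.11 with an interval of -1.80 to -0.41. Its adjusted p was 0.129 over this comparison alone and 0.0207 when the 3 comparisons between durations were adjusted together, so the call of this step depends on the adjustment.

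The slow C protein Mybpc1 (probe set 10901574, chromosome 7 from 25214932 to 25300450, minus strand) was lower at the later durations by less than the minimum. Against the controls, its log2 change was -0.27 at 6h-4d (SE 0.11, adjusted p = 0.208), -0.55 at 5-8d (SE 0.14, adjusted p = 0.00508) and -0.45 at 9-14d (SE 0.13, adjusted p = 0.00883). The differences between durations were -0.28, -0.18 and 0.10 and did not pass the test, with adjusted p-values of 0.110, 0.189 and 0.805. Despite its name, Mybpc1 is expressed in fast fibres too.

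The H protein Mybph (probe set 10764079, chromosome 13 from 47151050 to 47158697, plus strand), a shorter relative of the C proteins, had values above the controls at each duration. The log2 change of Mybph was 0.15 at 6h-4d (SE 0.31, adjusted p = 0.877), 0.91 at 5-8d (SE 0.40, adjusted p = 0.0935) and 1.59 at 9-14d (SE 0.36, adjusted p = 0.00111). The last value is a 3.01-fold up-regulation. In the study's quantitative PCR on the same RNA, Mybph was below the controls at 6h-4d and 5-8d and above them at 9-14d. The study marked none of these PCR values as a significant change, so PCR gave no significant rise beside that of the array. Over all the genes it measured by PCR, the study describes the patterns of both methods as similar. Mybph was higher at 9-14d than at 6h-4d by 1.44 (SE 0.29, adjusted p = 0.000360). The differences of 0.76 between 5-8d and 6h-4d (adjusted p = 0.116) and of 0.68 between 9-14d and 5-8d (interval -0.11 to 1.46, adjusted p = 0.466) did not pass the test.

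**Figure D2:**
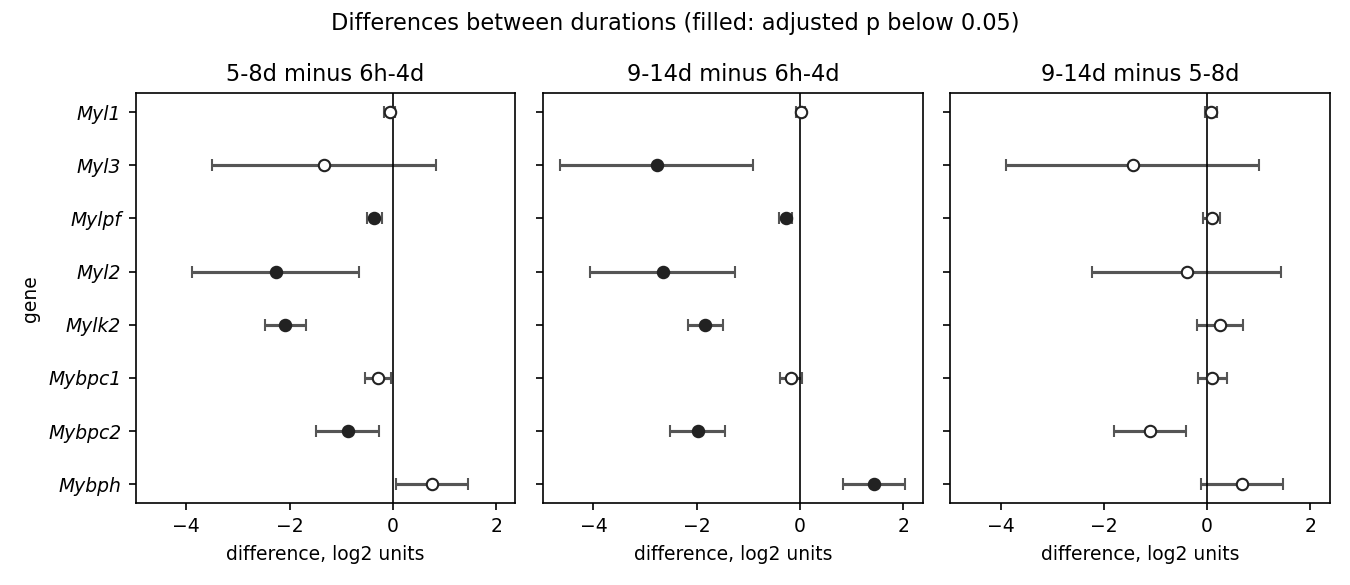
Differences of the log2 change between durations for each gene (horizontal axis, log2 units), with 95% confidence intervals as bars and filled points at an adjusted p below 0.05. Against 6h-4d, 4 genes passed at 5-8d and 6 at 9-14d, and between 5-8d and 9-14d 0 passed.

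Between durations, 2 of the 8 genes were called at 5-8d against 6h-4d (Myl2 and Mylk2, with 2.68% of all probe sets called) and 5 at 9-14d against 6h-4d (the same 5 as against the controls, with 3.32% of all probe sets called). These comparisons share the 6h-4d rats. The calls at 9-14d against 6h-4d and against the controls share the 9-14d rats and the SD, so they are not independent. Between 5-8d and 9-14d, 0 of the 8 were called by the recovered statistics, against 0.21% of all probe sets. There 1, Mybpc2, had an unadjusted p below 0.05, as had 13.2% of all probe sets. On the adjusted p alone, the counts in these 3 comparisons were 4, 6 and 0 of 8, against 21.3%, 35.5% and 0.408% of all probe sets.

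Set side by side as pairs, the slow light chains had lower values than their fast counterparts at each duration. The change of Myl3 minus that of Myl1 was -1.28 at 6h-4d, -2.55 at 5-8d and -4.06 at 9-14d. The change of Myl2 minus that of Mylpf was -0.97, -2.87 and -3.35. For the C proteins, the change of the fast Mybpc2 minus that of the slow Mybpc1 was 0.18, -0.42 and -1.62, so the slow form had the lower value at 6h-4d and the fast form at 5-8d and 9-14d. No error is given for these differences within a pair, because the covariance of a pair over rats cannot be had from the table, and they were not tested.

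The 8 genes covered almost the whole range of within-group spread. This SD is shared by all 4 groups. It also holds differences between the several durations pooled in a group and between the pieces of muscle taken. The within-group SD of Myl3 was 1.85 log2 units, the highest of all 26208 probe sets and 9.09 times their median of 0.203. Myl2 had an SD of 1.38, the 12th highest. At the other end Myl1 had an SD of 0.0906, the 34th lowest, and Mylpf 0.125. The SD was 0.214 for Mybpc1, 0.335 for Mylk2, 0.524 for Mybpc2 and 0.595 for Mybph. Among the 12 probe sets of highest SD, looked up after the values were seen, 2 were members and 6 others encode slow-fibre proteins from the list described next, such as the slow troponins Tnnc1 (1.73) and Tnnt1 (1.67) and the slow heavy chain Myh7 (1.65), with 1 from the fast list, Myh2 (1.82). The SD sets what could be called, since a fall of Myl3 had to reach 10.3-fold at 6h-4d, 9.75-fold at 5-8d and 7.06-fold at 9-14d to pass the adjusted p, where its values were 2.50-fold, 6.28-fold and 17.1-fold. For Myl2 the limits were 5.72-fold, 5.50-fold and 4.32-fold.

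**Figure D3:**
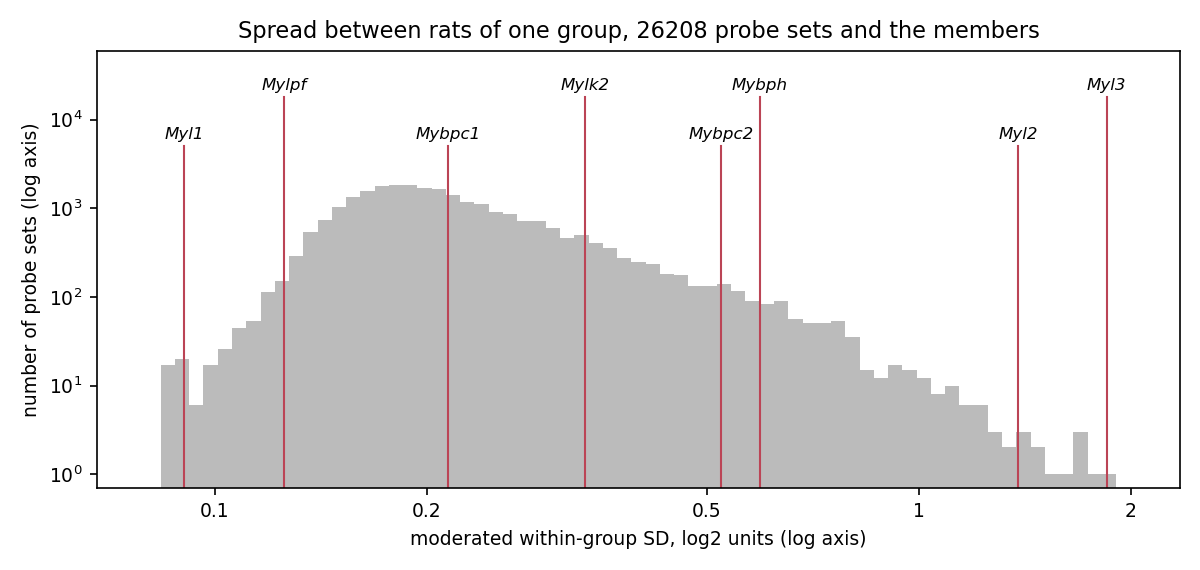
Histogram of the moderated within-group SD of 26208 probe sets (horizontal axis, log2 units on a log scale, and vertical axis, number of probe sets on a log scale), with red lines at the 8 genes. Myl3 at 1.85 is the highest of all, Myl1 at 0.0906 lies near the lowest, and Mybpc1 at 0.214 is near the median of 0.203.

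Other slow-fibre sarcomere genes were read from a list of 10 symbols on 11 probe sets. Of these, 0 were called at 6h-4d, 2 at 5-8d and 3 at 9-14d, all down-regulated, and the median log2 change was -0.97, -1.62 and -1.98. The lowest at 9-14d was Myh7, the slow heavy chain that carries Myl2 and Myl3, at -3.73 (SE 1.00, adjusted p = 0.00481), and the highest was 1 of the probe sets of Tpm3, slow tropomyosin, at 0.23 (adjusted p = 0.491). Their median SD was 1.41, so the spread between rats seen in Myl3 and Myl2 was shared by most of the list. The part of this spread in the changes of Myl3 and Myl2 was not tested. Beside the calls of this list and of the lists and markers below, 0.549%, 5.21% and 5.12% of all probe sets were called at the 3 durations.

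The fast-fibre list had 10 of 11 symbols on 11 probe sets, of which 0, 3 and 3 were called at the 3 durations, all down-regulated. Its median log2 change was -0.18, -0.70 and -0.55, and its median SD 0.299. The lowest at 9-14d was Myh2, the heavy chain of the fast oxidative fibre, at -2.98 (adjusted p = 0.0361), and the highest a probe set shared by Myh2 and Myh3, at 0.11 (adjusted p = 0.869).

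Genes linked to phosphorylation of the regulatory light chain were read from a list of 13 kinases, phosphatase subunits and calmodulins. Of these, 12 were found on 12 probe sets, and whether each acts on the chain itself was not tested. On the adjusted p alone, 5 were lower and 0 higher at 5-8d, and 5 were lower and 1 higher at 9-14d, with 1 called at each of these durations and 0 at 6h-4d. Of all probe sets, 26.2% passed on the adjusted p alone at 5-8d and 35.5% at 9-14d, in either direction. Camk2a, a calcium and calmodulin dependent kinase, was the lowest at 9-14d at -1.21 (adjusted p = 3.37e-05). Ppp1r12a, a targeting subunit of the myosin phosphatase, was the highest at 0.62 (adjusted p = 3.27e-05). Ppp1r12b, another targeting subunit, looked up after the values were seen, went the other way, at -0.85 at 9-14d (adjusted p = 0.000326). The list's median, -0.27 at 9-14d, lay nearer to 0 than the -2.08 of Mylk2.

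Light chains of non-muscle and smooth muscle myosin were found for 4 of 7 symbols, and 0 of their 4 probe sets were called at any duration. Myl12b, a non-muscle regulatory chain, was the highest at 9-14d at 0.63 (adjusted p = 0.0333), and Myl9, the smooth muscle regulatory chain, the lowest at -0.31 (adjusted p = 0.321). Of 10 probe sets of developmental and cardiac sarcomere genes, 1 was called up-regulated and 1 down-regulated at 9-14d. These were Tnnt2, cardiac troponin T, at 1.55 (adjusted p = 0.00170) and Myh6, a cardiac heavy chain, at -1.13 (adjusted p = 0.00120). Other thick filament and M-band genes had 26 probe sets for 14 symbols, of which 12 were lower and 5 higher at 9-14d on the adjusted p alone. By that rule 35.5% of all probe sets passed. Hsp90aa1, a chaperone, was the highest at 1.56 on a probe set outside the unique class, and Myom2, myomesin of the M-band, the lowest at -1.36 (adjusted p = 7.24e-05).

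**Figure D4:**
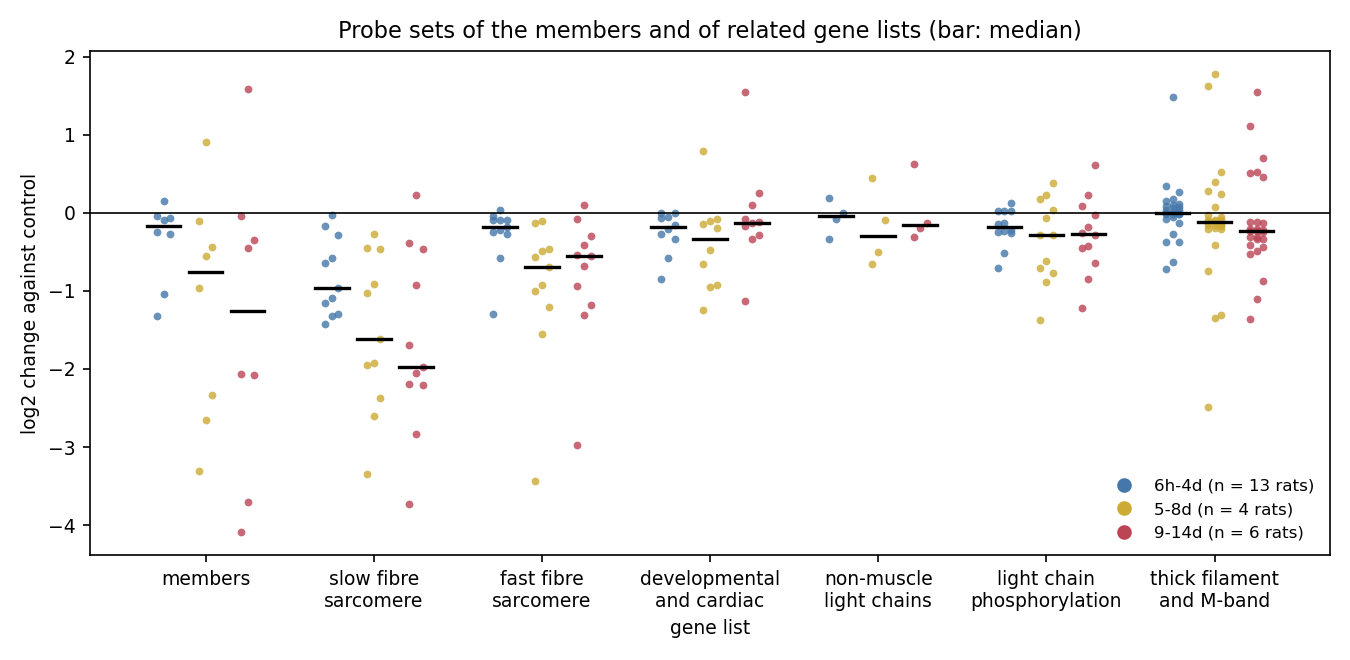
Log2 change against the controls (vertical axis, log2 units) of every probe set of the 8 genes and of 6 lists of related genes, coloured by duration, with the median as a black bar. The medians at 9-14d are -1.26 for the 8 genes, -1.98 for slow-fibre genes and -0.55 for fast-fibre genes, and the other lists lie nearer to 0.

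Markers of other cells moved in the same comparisons. Of 7 macrophage markers found, 1 was called up-regulated at 6h-4d, 0 at 5-8d and 6 at 9-14d. The log2 changes of the 6 called at 9-14d ran from 1.03 to 1.51, and that of Cd14, the other marker, was 0.68 (adjusted p = 0.203). Of 7 genes of regenerating or denervated fibres, 3 were called up-regulated at both later durations, led at 9-14d by Myog, a myogenic transcription factor, at 3.71 (adjusted p = 5.66e-07), with Pax7, a satellite cell factor, at -0.70 (adjusted p = 0.000545). Of 6 fibroblast markers, 4 were called down-regulated at 5-8d and 2 at 9-14d. Endothelial (3 probe sets), smooth muscle (5) and Schwann cell (6) markers had 0 calls at 9-14d, with ranges from -0.52 to 0.07, from -0.47 to 0.13 and from -0.25 to 0.75. The part of any of these cells in the changes of the 8 genes was not tested.

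By position, the nearest probe sets with 1 symbol on either side of the 8 genes, 16 in all, were looked up after the values were seen. Of these, 0, 2 and 1 were called at 6h-4d, 5-8d and 9-14d. Chi3l1, which encodes a secreted chitinase-like protein, ends 3459 bp before Mybph on RGSC3.4 and was up-regulated by 2.23 at 5-8d (adjusted p = 0.000678) and 3.58 at 9-14d (adjusted p = 1.88e-07). Adora1, an adenosine receptor 345 bp away on the other side of Mybph, had values of 0.25 and 0.27 that did not pass the test. Chpt1, an enzyme of phosphatidylcholine synthesis 16548 bp from Mybpc1, was down-regulated at 5-8d by -1.12 (adjusted p = 0.000591). No neighbour of Myl1, Myl2, Myl3, Mylk2, Mylpf or Mybpc2 was called.

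Across the 3 log2 changes, likeness to other genes was measured as the Euclidean distance in log2 units, over probe sets with 1 symbol. Nearest to Myl3 were Nr4a1, a nuclear receptor, at 0.54 and Myh7 at 0.58. Nearest to Mylk2 were Scn4b, a sodium channel subunit, at 0.14 and Asb11 at 0.17. Mybpc2 had Unc5a, a netrin receptor, at 0.20 and Mllt11 at 0.38, and Mybph had Pkp4, a plakophilin, at 0.15 and Sec1 at 0.15. The nearest to Myl2 were the predicted genes RGD1565145 at 0.33 and LOC691300 at 0.50. For Myl1 (LOC685099 and Clul1), Mylpf (RGD1311849 and Pde5a) and Mybpc1 (Tshb and IgG-2a) the distances were at most 0.02, in a range of small changes where many genes lie close together.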

How the data were processed

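According to the study's methods, RMA was used by the authors to normalise the arrays, and a linear model in limma with Benjamini-Hochberg adjustment gave the p-values. The deposited table holds log2 changes and adjusted p-values of 3 comparisons with the control, and its first line calls the log2 values lowess normalised. Both were used as deposited, since the table has no other values. The submitters' processing notes also name MAS5, and versions were not given in the sources used here. The planned fit to 28 arrays was replaced by statistics recovered from the table. The adjustment was undone, and the moderated statistic was taken at 28.26 degrees of freedom (24 residual and 4.26 prior). Error bounds of the SDs reached at most 0.164%, and 0 calls changed when the adjusted p-values were computed again. The recovery was tested on simulated data. Comparisons between durations were adjusted over all 26208 probe sets. Precision is limited by the number of rats.

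The members and gene lists were chosen with earlier results of these data known. Named genes are all members, the highest and lowest of each list at 9-14d and the 2 nearest in distance, and others are said to be looked up later. Sequences are RefSeq windows on GRCr8, apart from positions on RGSC3.4. Python 3.11.15, numpy 2.4.6, scipy 1.17.1, pandas 2.3.3 and matplotlib 3.10.9 were used.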

Additional observations from a re-analysis of the deposited data

Results flagged for a closer look

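Expression differed between durations for 6 of the 8 genes, by the test of the difference itself (recovered limma statistics, adjusted p below 0.05 over all probe sets, with SE and interval as given above). Between 6h-4d and 5-8d, the log2 difference was -0.36 for Mylpf, -2.27 for Myl2, -2.08 for Mylk2 and -0.88 for Mybpc2. Between 6h-4d and 9-14d, it was -2.77 for Myl3, -0.28 for Mylpf, -2.66 for Myl2, -1.84 for Mylk2, -1.98 for Mybpc2 and 1.44 for Mybph. These 6 genes passed in a comparison in which 35.5% of all probe sets did. No single rat could be examined for its distance from its group.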

How the results depend on the processing

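The 48 log2 values of the 8 genes (6 comparisons) were set against 7 alternatives. Of the resulting verdicts, 324 kept direction and side of the threshold, 9 newly passed, 2 no longer passed and 1 changed sign. The 324 include 48 from keeping only probe sets whose sole symbol is a member. That setting could change nothing, since the 8 probe sets carry no other symbol. Without a fold change minimum, 5 of the 8 genes passed at 5-8d against the control and 7 at 9-14d, where 26.2% and 35.5% of all probe sets did. Against 6h-4d, 4 passed at 5-8d and 6 at 9-14d, where 21.3% and 35.5% of all probe sets did. With an adjusted p below 0.01, 1 was called at 5-8d against 6h-4d, since Myl2 was lost, and Myl3 was lost at 9-14d against 6h-4d. Adjustment over the 3 comparisons between durations together called 1 gene, Mybpc2, at 9-14d against 5-8d. Centring on the median of all probe sets turned the value of Myl1 at 9-14d, not called in either case, to 0.0376, and took Mybpc2 at 5-8d against the control, not called for its fold in either case, from an adjusted p of 0.0423 to 0.0533. Leaving out each rat in turn was not run, since the table used has no values of single rats, so it is not known whether 1 rat decides a call. No paired analysis was possible because the groups are different rats and the columns carry no replicate numbers.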
